A study of Sus scrofa with 4 samples.

Results

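The CD209 or LYVE1 macrophages were 380 of the 27727 barcodes with 200 or more genes in single-cell libraries of the meniscus, a crescent of fibrocartilage in the knee joint, from pigs (Sus scrofa). They were chosen by their own UMI counts (counts of distinct captured RNA molecules). A member had at least 5 UMIs summed over the complement genes C1QA, C1QB and C1QC and at least 1 UMI of CD209 or LYVE1. It had at most 1 UMI of the endothelial genes PECAM1, PLVAP and VWF and at most 1 of the mural genes ACTA2, MYH11 and RGS5. The levels of these 11 genes are therefore a description of the choice and not a result, and none of them was tested. The study took the lateral and the medial meniscus, freed them of synovium, divided each into a red and a white zone and digested the pieces with pronase and then collagenase. Each combination of meniscus and zone gave 1 library with 10x Genomics 3-prime chemistry, so there were 4 libraries, 2 for each zone. By its textbook definition the red zone is vascular and peripheral, whereas the white zone is avascular and central. No treatment was applied in any group. The labels give no age, strain or number of animals.

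Tissue-resident macrophages live beside vessels and in connective tissue, where they take up dead cells, haemoglobin and matrix fragments and sense microbes through lectin receptors. C1QA, C1QB and C1QC encode the chains of C1q, the recognition molecule of the classical complement pathway. CD209 (also called DC-SIGN) is a C-type lectin that binds mannose-rich and fucosylated sugars, and LYVE1 is a receptor for the matrix sugar hyaluronan, carried by lymphatic endothelium as well as by a subset of perivascular macrophages. In the RefSeq annotation of the pig genome build Sscrofa11.1, CD209 lies on chromosome 2 at positions 71394414 to 71397711 and LYVE1 on chromosome 2 at positions 48937357 to 48954206.

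The 4 libraries held between 5753 and 7807 barcodes and between 9666319 and 14902274 UMIs each. The pairs of libraries shared between 10 and 20 barcodes, and 3 of these shared barcodes belonged to a member in one of the libraries. Scrublet, a doublet caller, marked 131 barcodes in the lateral red library, 1 in the medial red and 0 in each white library. It did not work on 3 of them and was not used to remove cells. The marked barcodes of the lateral red library included 8 members. The 265 lateral and 374 medial red barcodes with the highest scores, left out in an alternative below, held 10 and 19 members. The p-values below set the difference between classes against its spread from library to library, pooled over genes. With no animals named, the libraries may come from the same animals. In the comparisons of classes of cells both classes came out of the same suspension.

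The CD209 or LYVE1 macrophages were found in both red zone libraries and in neither white zone library. There were 164 in the lateral red zone, 2.87% of its barcodes with 200 or more genes (exact 95% Clopper-Pearson interval 2.45 to 3.34), and 216 in the medial red zone, 3.17% (2.76 to 3.61). None of 7382 lateral white and none of 7807 medial white barcodes met the rule, which allows a share of up to 0.0406% and 0.0384%, taken as 3 cells of the total. The white zone did hold C1Q macrophages, 56 in the lateral and 52 in the medial library, or 0.759% and 0.666% of barcodes, against 436 and 502 in the red zone, or 7.63% and 7.36%. Members made up 37.6% of the C1Q macrophages of the lateral red zone (33.1 to 42.3) and 43.0% of those of the medial red zone (38.6 to 47.5). Among white zone C1Q macrophages 0 of 56 and 0 of 52 were members, which allows up to 5.36% and 5.77%. The lateral and medial white zone C1Q macrophages had a median of 1927 and 1364 UMIs against 1587 and 1393 in the members, and none met the rule when each barcode was thinned to 1000 UMIs. In total 1 CD209 UMI was counted in the lateral white library and 0 in the medial white library, against 691 and 1154 in the lateral and medial red libraries. With 2 libraries a zone, an exact permutation test could reach p = 0.33 at best, so no test of the shares was made, and their intervals hold counting error alone. The zones were cut apart and digested separately, and the part of dissection and digestion in these shares was not tested.

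**Figure D1:**
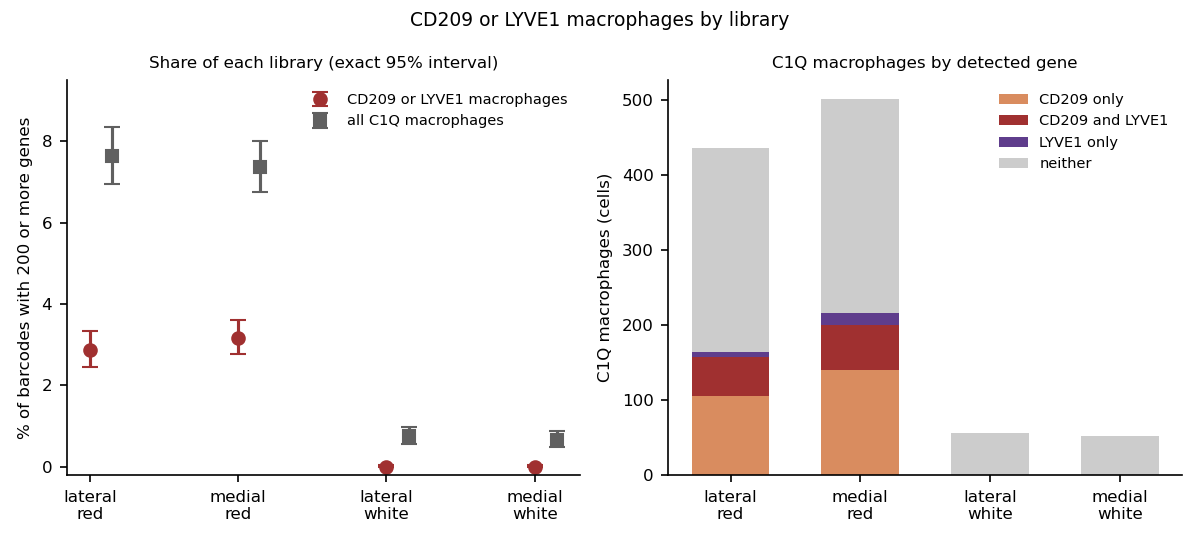
Left, the share of barcodes with 200 or more genes that were CD209 or LYVE1 macrophages (circles) or any C1Q macrophages (squares) in each library, with exact 95% binomial intervals. Right, the number of C1Q macrophages in each library by the gene detected; the white zone libraries held 56 and 52 C1Q macrophages, all without CD209 and LYVE1.

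CD209 chose most of the members. In the lateral red zone 105 members held CD209 alone, 53 held both genes and 6 held LYVE1 alone, and in the medial red zone 140, 60 and 16. The members carried 671 and 1058 CD209 UMIs, with up to 20 and 22 in a cell, but only 94 and 116 LYVE1 UMIs, with up to 5 in a cell in either library. They held 97.1% of all CD209 UMIs of the lateral red library and 91.7% of those of the medial red library. Of the LYVE1 UMIs they held 27.6% and 25.5%, and 138 of the 224 lateral red barcodes with LYVE1 and 178 of the 299 medial red ones were past the endothelial limit of the rule. LYVE1 was detected in a larger share of the C1Q macrophages with CD209 than of those without. LYVE1 was found in 33.5% of the lateral red C1Q macrophages with CD209 (26.2 to 41.5) and in 2.16% of those without (0.796 to 4.64). In the medial red zone the shares were 30.0% (23.7 to 36.9) and 5.30% (3.06 to 8.46). With every cell thinned to 1000 UMIs, leaving out 74 and 95 shallower cells, they were 27.5% against 2.89% and 20.5% against 5.18%. As a background, 0.101% of 1984 lateral and 0.153% of 2606 medial red barcodes of fibroblast type held a CD209 UMI and 0.101% and 0.307% held a LYVE1 UMI, at median depths of 1804 and 1707 UMIs. These cells had at least 5 UMIs of DCN and LUM and no UMI of the C1Q, endothelial or mural genes.

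Few cells stood at the C1Q limit, and more at the limit of CD209 and LYVE1. The lateral red zone had 1 member with 5 C1Q UMIs and the medial 0, and 0 and 3 cells with 4 C1Q UMIs were kept out. The members had a median of 41 and 38 C1Q UMIs, against 24 and 21.5 in the C1Q macrophages without CD209 and LYVE1. A further 24 and 36 red zone barcodes with CD209 or LYVE1 within the endothelial and mural limits had no C1Q UMI at all. The endothelial and mural limits kept out 5 and 17 barcodes that met the rest of the rule. At the other limit, 34 lateral and 45 medial members had exactly 1 UMI of CD209 and LYVE1, and 272 and 286 C1Q macrophages had 0.

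The levels of some genes outside the rule differed with the number of CD209 and LYVE1 UMIs in a cell. They did so step by step for FOLR2, HSD11B1, C4BPA, CCL14 and CXCL8 but not for SPP1. All of these genes were also called below between cells with 0 and with 1 or more of these UMIs. A difference between those groups was therefore given by the choice of genes. The share of all genes that go step by step was not computed. Levels are given in CPM, the UMIs of a gene divided by the summed UMIs of the cells in question and scaled to the usual CPM unit. FOLR2 was at 192, 594, 619 and 1088 CPM in lateral red cells with 0, 1, 2 to 4 and 5 or more of these UMIs, and at 167, 547, 686 and 788 CPM in the medial red zone. HSD11B1 went from 42.5 to 63.6, 265 and 510 CPM in the lateral and from 24.2 to 163, 290 and 391 CPM in the medial library. CXCL8 went the other way, from 785 to 509, 415 and 51.0 CPM in the lateral and from 736 to 710, 466 and 23.7 CPM in the medial library. Some of these levels rest on few UMIs or cells. The lateral HSD11B1 level in cells with 1 CD209 or LYVE1 UMI came from 3 UMIs. CXCL8 had UMIs in only 12 lateral and 24 medial members, and the 10% of members richest in it held 100% and 98.1% of these. Lateral cells had 475, 339, 44.2 and 195 CPM of SPP1 and medial cells 276, 133, 17.6 and 88.9 CPM, lowest with 2 to 4 of these UMIs in both. C4BPA went from 12553 to 26326, 26528 and 27898 CPM in the lateral and from 8967 to 19586, 21593 and 25633 CPM in the medial library, with most of the difference between 0 and 1 UMI. CCL14 went from 492 to 996, 1370 and 1581 CPM in the lateral library. In the medial library CCL14 went from 588 to 1790, 1812 and 2086 CPM. The groups of cells also differed in depth, with medians of 1357, 1380, 1530 and 1699 UMIs in the lateral and 1283.5, 1368, 1393 and 1464.5 in the medial library. These are descriptions without a test, and the part of depth in them was not tested. The cells with a single positive UMI lay between those with none and those with 5 or more in both libraries for FOLR2, HSD11B1, CXCL8, C4BPA, CCL14 and SPP1.

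The label of macrophages held against genes that the rule did not use. Of 14 macrophage identity genes 11 were in the files under these names, and 98.8% of lateral and 97.2% of medial members had at least 3 UMIs of them. CSF1R, the receptor for the macrophage growth factor, was at 1216 and 891 CPM in lateral and medial members and at 64.9 and 41.9 CPM in all other barcodes of the same libraries. CD163, the haemoglobin scavenger receptor, was at 1223 and 851 CPM against 44.1 and 25.2, and MRC1, the mannose receptor, at 1133 and 551 CPM against 39.9 and 24.0. CD68, a lysosomal glycoprotein of macrophages, was at 1173 and 837 CPM against 40.5 and 28.6. The largest ratio to all other barcodes outside the rule was that of C4BPA, a chain of the complement inhibitor C4b-binding protein, at 27074 and 23153 CPM against 602 and 400. CCL14, a chemokine, followed at 1396 and 1940 CPM against 29.2 and 36.7. Whether the cells were long-lived residents of the tissue or had come from blood was not tested. CX3CR1 was at 2 UMIs in each red zone library's members and CCR2 at 3 and 2 UMIs, and S100A8, a gene of blood monocytes, was at 0, with only 2 and 9 UMIs in all other barcodes of the lateral and medial red libraries. LYZ, another such gene, was at 0 in every class of cells in the red zone, so its absence does not set the members apart.

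Some members carried RNA of other cell types. At least 3 UMIs of the 9 fibroblast markers were found in 21 lateral members (12.8%) and 32 medial members (14.8%), against 15.1% and 12.9% of the C1Q macrophages without CD209 and LYVE1. Chondrocyte markers reached 3 UMIs in 8 and 10 members and T or NK cell markers in 7 and 10. Endothelial markers outside the rule reached it in 0 and 0 members, and lymphatic endothelial markers in 0 and 1. Of 7 lymphatic endothelial genes, CCL21, MMRN1, FLT4, RELN and TFF3 were at 0 in all members. In summed levels the fibroblast markers were at 9544 and 12838 CPM in members, 8089 and 10678 CPM in the C1Q macrophages without CD209 and LYVE1, and 58238 and 65216 CPM in all other barcodes. Removing every cell with at least 3 UMIs of any such marker list left 305 members, a setting chosen after seeing the data, and the results are given with it below where it ends a call.

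The comparison within the C1Q macrophages of the red zone asked what, besides CD209 and LYVE1, set the members apart from the 272 lateral and 286 medial C1Q macrophages that lacked both. Higher in the members were 11 of 15 tested genes of perivascular and resident macrophages, among them FOLR2, CCL14, F13A1 and CD163, together with HSD11B1, C4BPA, the protease gene CTSL and 7 of 19 interferon-induced genes. Lower were 3 of 7 tested MHC class II genes, 3 of 11 lipid-handling genes, among them SPP1 and FABP5, and the chemokines CXCL8 and CCL8. UMIs were summed per library and class (277983 to 413191 UMIs per sum) and tested with edgeR's quasi-likelihood method with the library as block and Benjamini-Hochberg adjustment. At an adjusted p below 0.05, 293 of 4399 genes were called (6.66%), 158 higher in the members (3.59%) and 135 lower (3.07%). The median log2 fold change over all tested genes was -0.01. The plot of the differences in both libraries shows how far they went the same way.

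**Figure D2:**
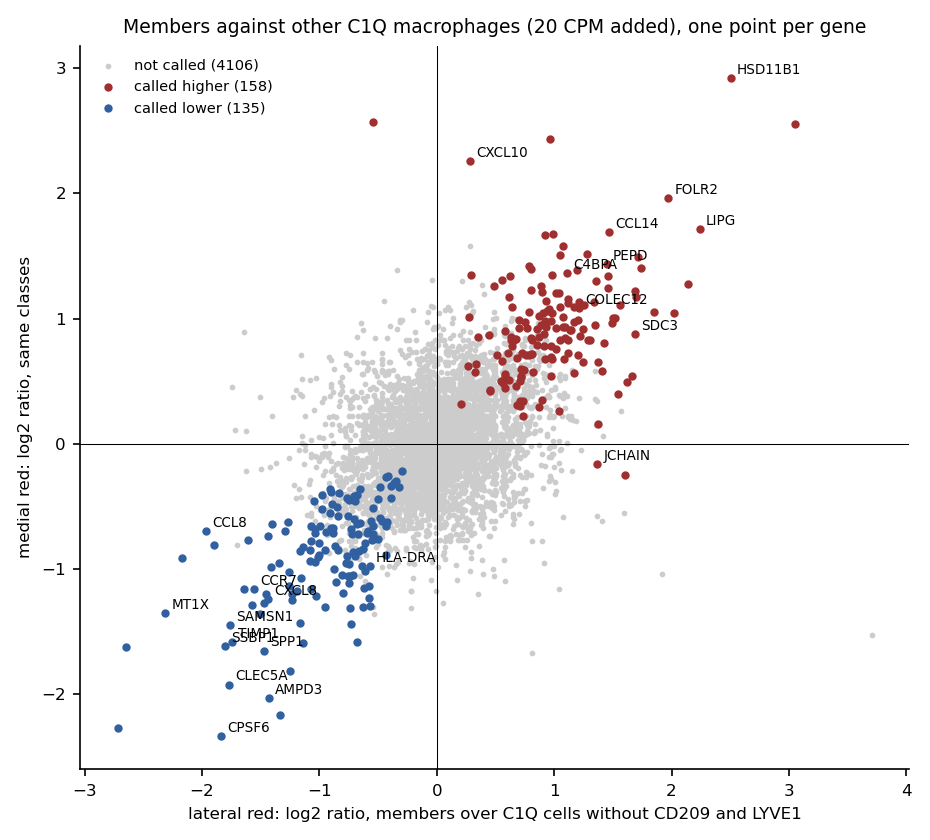
Each point is a gene, with its log2 ratio of CD209 or LYVE1 macrophages over C1Q macrophages without both genes in the lateral red library (horizontal) and in the medial red library (vertical), 20 CPM added to both levels. Red and blue points were called higher (158) or lower (135) by edgeR; HSD11B1 and FOLR2 stand far out in both libraries, while JCHAIN was called with ratios of opposite sign.

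The resident macrophage list had the highest median of the lists. Of 15 tested genes 11 were higher in the members and 0 lower, against 3.59% and 3.07% of all genes, with a median log2 fold change of 0.84. FOLR2 (ENSSSCG00000014812), the folate receptor of macrophages, lies on chromosome 9 at positions 6785308 to 6790466. It was at 813 CPM in lateral and 708 CPM in medial members against 192 and 167 CPM in the C1Q macrophages without CD209 and LYVE1. The log2 fold change was 2.07 ± 0.16 (edgeR adjusted p = 7.21e-08). Here and below, the value after ± is the size of the log2 fold change divided by the square root of edgeR's F statistic. That statistic uses a spread pooled over genes, so the value is not a standard error over libraries. CCL14 (ENSSSCG00000034722, chromosome 12, positions 39611887 to 39616050) was at 1396 and 1940 CPM against 492 and 588, a log2 fold change of 1.61 ± 0.12 (adjusted p = 7.22e-08). Both genes were also called by DESeq2 and without the library block. FOLR1, whose gene is a close relative of FOLR2, was itself called higher, at 7475 and 8950 CPM against 5944 and 6014, and reads of the folate receptor genes may have been split between them.

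The scavenger and uptake receptors of the resident list were higher in the members by smaller factors. CD163 was at 1223 and 851 CPM against 752 and 523, a log2 fold change of 0.70 ± 0.13 (edgeR adjusted p = 0.00163). VSIG4, a receptor for complement fragments, was higher by 0.90 ± 0.17 and TIMD4, which binds phosphatidylserine on dying cells, by 1.00 ± 0.28 (adjusted p = 0.00235 and 0.0351). MRC1 was at 1133 and 551 CPM against 672 and 470, with a log2 fold change of 0.50 ± 0.15 (adjusted p = 0.047). Its difference lay mostly in the lateral library, since the value was 0.21 without that library and 0.75 without the medial one. STAB1, another scavenger receptor, was higher by 0.65 ± 0.18 (adjusted p = 0.0338). The calls of MRC1 and STAB1 were lost with a C1Q limit of 10 UMIs (adjusted p = 0.111 and 0.0605) and without the cells that held markers of other types (0.113 and 0.0633).

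Secreted proteins of the list were also higher. F13A1, the catalytic chain of clotting factor XIII, was at 543 and 423 CPM in members against 225 and 203, a log2 fold change of 1.16 ± 0.16 (edgeR adjusted p = 0.000151). SELENOP, the selenium carrier, was at 5292 and 3808 CPM against 3157 and 2527, a log2 fold change of 0.66 ± 0.09 (adjusted p = 7.78e-05). IGF1, a growth factor, was higher by 0.83 ± 0.20, and DAB2, an adaptor of endocytosis, by 0.98 ± 0.16. SIGLEC1, at 158 and 117 CPM against 75.0 and 72.6, was not called (adjusted p = 0.0522), nor was NRP1 (adjusted p = 0.0546). NRP1 was called in cells thinned to 1000 UMIs (adjusted p = 0.0188), as was SIGLEC1 (adjusted p = 0.00806). With DESeq2's size factors TIMD4, STAB1 and MRC1 lost their calls (adjusted p = 0.0637, 0.0632 and 0.0956). CD163, VSIG4, TIMD4, MRC1, STAB1, SELENOP, IGF1 and DAB2 lost their calls with DESeq2's Wald test and also without the library block. F13A1 lost its call with DESeq2's Wald test (adjusted p = 0.185).

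White zone C1Q macrophages had lower levels of several of these genes than the members, and higher levels of SPP1 and of the chemokine CXCL8. CXCL10, another chemokine, was not higher there, at 142 and 0 CPM against 187 and 480 CPM in the members. CCL14 was at 223 CPM in the lateral and 362 CPM in the medial white library, F13A1 at 80.1 and 135 CPM, MRC1 at 285 and 279 CPM and C4BPA at 4585 and 3043 CPM. FOLR2 was at 365 and 259 CPM, between the members and the red zone cells without CD209 and LYVE1. SPP1, which encodes osteopontin, was at 8199 and 3302 CPM in the white zone, compared with 475 and 276 CPM in red zone cells without CD209 and LYVE1 and 158 and 74.3 CPM in the members. CXCL8 was at 3588 and 4782 CPM, against 785 and 736 and then 277 and 300 CPM. In each of these genes the 2 white libraries, with 56 and 52 C1Q macrophages, lay outside the range of the members. The share of all genes for which this holds was not computed, so the separation of these genes cannot be judged as unusual. No test was made of these levels between zones. RNA of other cell types differed beside them: at least 3 UMIs of the fibroblast markers were found in 17.9% and 34.6% of the lateral and medial white zone C1Q macrophages against 12.8% and 14.8% of the members. Chondrocyte markers reached 3 UMIs in 12.5% and 15.4% of the former and in 4.88% and 4.63% of the members, and the part of this RNA in the levels was not tested.

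**Figure D3:**
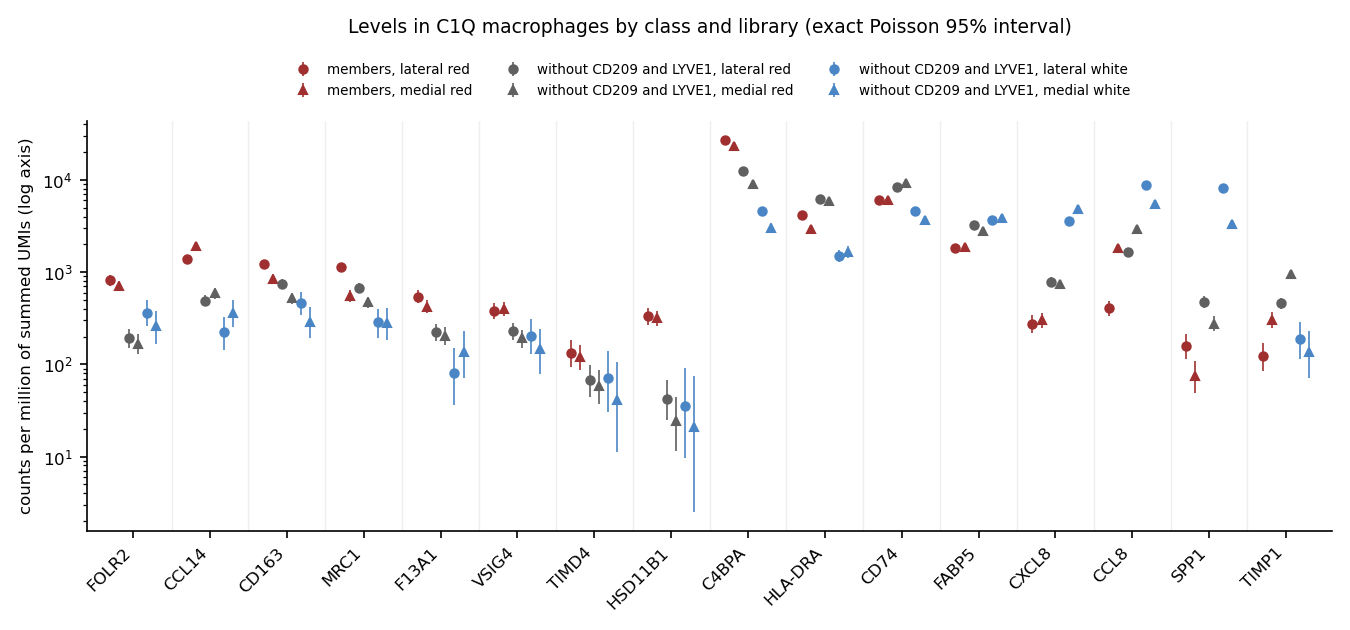
Levels of 16 genes in CPM of summed UMIs (log axis) in C1Q macrophages by class and library, with exact Poisson 95% intervals that cover counting error only. Circles are lateral and triangles medial libraries; red is CD209 or LYVE1 macrophages, grey red zone C1Q macrophages without both genes, blue white zone C1Q macrophages, in which SPP1 and CXCL8 were highest.

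Among single genes outside the lists, HSD11B1 (ENSSSCG00000015616), which makes active glucocorticoid from its inactive form inside cells, showed one of the largest differences. It lies on chromosome 9 at positions 133231451 to 133278396. It was at 335 and 314 CPM in lateral and medial members against 42.5 and 24.2 CPM, a log2 fold change of 3.28 ± 0.25 (edgeR adjusted p = 7.22e-08). LIPG, a lipase, had 86.3 and 45.7 CPM in members against 2.50 and 0 CPM, with a log2 fold change of 5.39 ± 0.71 that depends on the prior count of the fit. C4BPA had the lowest p of all genes, at 27074 and 23153 CPM against 12553 and 8967 (log2 fold change 1.23 ± 0.06, adjusted p = 9.93e-10). PEPD, which cleaves proline-containing dipeptides, was at 1425 and 1028 CPM against 510 and 368 (1.48 ± 0.13). The other genes among the 10 largest were P2RY14, a receptor for nucleotide sugars (2.33), FGFR1, a fibroblast growth factor receptor (2.29), CALML4 (2.05), HOMER3 (1.89), CCDC141 (2.86), DTX2 (2.43) and NSMCE1 (1.89). Without the lateral library the value of LIPG was 3.22 and that of CCDC141 1.50, and without the medial library that of DTX2 was 1.54. CCDC141 and NSMCE1 lost their calls without the cells that held markers of other types (adjusted p = 0.0524 and 0.0928). HSD11B1, FOLR2, CCL14, C4BPA and PEPD were called in every setting tested, DESeq2 and the fit without the library block included.

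The general macrophage genes differed less. Of 11 tested identity genes 3 were higher in the members, CD14, a receptor for bacterial lipopolysaccharide, by 1.04, CD68 by 0.75 and MAF, a macrophage transcription factor, by 1.43 on the log2 scale. The median of the list was 0.33. CSF1R, at 1216 and 891 CPM against 922 and 728, was not called (log2 fold change 0.34 ± 0.12, edgeR adjusted p = 0.114). APOE was at 281 and 303 CPM against 305 and 339 and was not called either (adjusted p = 0.671).

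Complement and lysosomal genes were higher in part. Of 8 tested complement genes 2 were higher and 0 lower (median 0.75), CFD, the protease factor D of the alternative pathway, at 1784 and 1454 CPM against 850 and 673 (log2 fold change 1.09 ± 0.12) and CFP, properdin, at 320 and 337 CPM against 177 and 152 (0.99 ± 0.18). Of 21 lysosomal genes 5 were higher and 1 lower (median 0.30). CTSL, cathepsin L, was at 943 and 1594 CPM against 422 and 721 (1.14 ± 0.13, edgeR adjusted p = 9.3e-06), and CTSD was higher by 0.74 and NPC2, a cholesterol carrier, by 0.53. CTSS, a cathepsin that trims the class II invariant chain, was lower by a log2 fold change of -0.36 (adjusted p = 0.025), a call lost in cells thinned to 1000 UMIs (adjusted p = 0.0642) and without the cells that held markers of other types (adjusted p = 0.0784). Of 11 scavenging and efferocytosis genes 1 was higher and 2 lower (median 0.28), with COLEC12 at 1.67 and with MSR1, the class A scavenger receptor, at -0.87 and CLEC7A, the beta-glucan receptor, at -2.34. Of 10 haem and iron genes the iron exporter SLC40A1 was higher at 1.10 and the transporter SLC11A1 lower at -1.99. The calls of CLEC7A and SLC11A1 were lost without the cells that held markers of other types (adjusted p = 0.156 and 0.0946), and CLEC7A was at -1.02 without the medial library.

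Some genes of the interferon response list and of the immediate-early and heat-shock list were higher in the members, and none of these lists was lower. CXCL9, which is in neither list, was called lower, as given below. Of 19 tested interferon response genes 7 were higher and 0 lower, with a median of 0.78. MX1, an antiviral GTPase, was at 442 and 306 CPM against 192 and 126, a log2 fold change of 1.23 ± 0.17 (edgeR adjusted p = 0.000151). IFIT1 was higher by 1.15 and OAS2 by 1.01. The calls of OAS2 and IFI6 were lost without the cells that held markers of other types (adjusted p = 0.0906 and 0.0590). Of 15 immediate-early and heat-shock genes 6 were higher and 0 lower, with a median of 0.49. HSPA6, an inducible chaperone of the HSP70 family, was at 3831 and 2397 CPM against 2012 and 1493 (0.80 ± 0.10, adjusted p = 4.6e-05), FOS was higher by 0.64 and HSPH1 by 0.49. HSPH1 was at 0.29 without the lateral library and lost its call without the cells that held markers of other types (adjusted p = 0.0506). HSPA6 has near copies in the genome, among which reads may have been split. Such genes respond to warm enzymatic digestion, and the digestion's part in their levels was not tested.

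**Figure D4:**
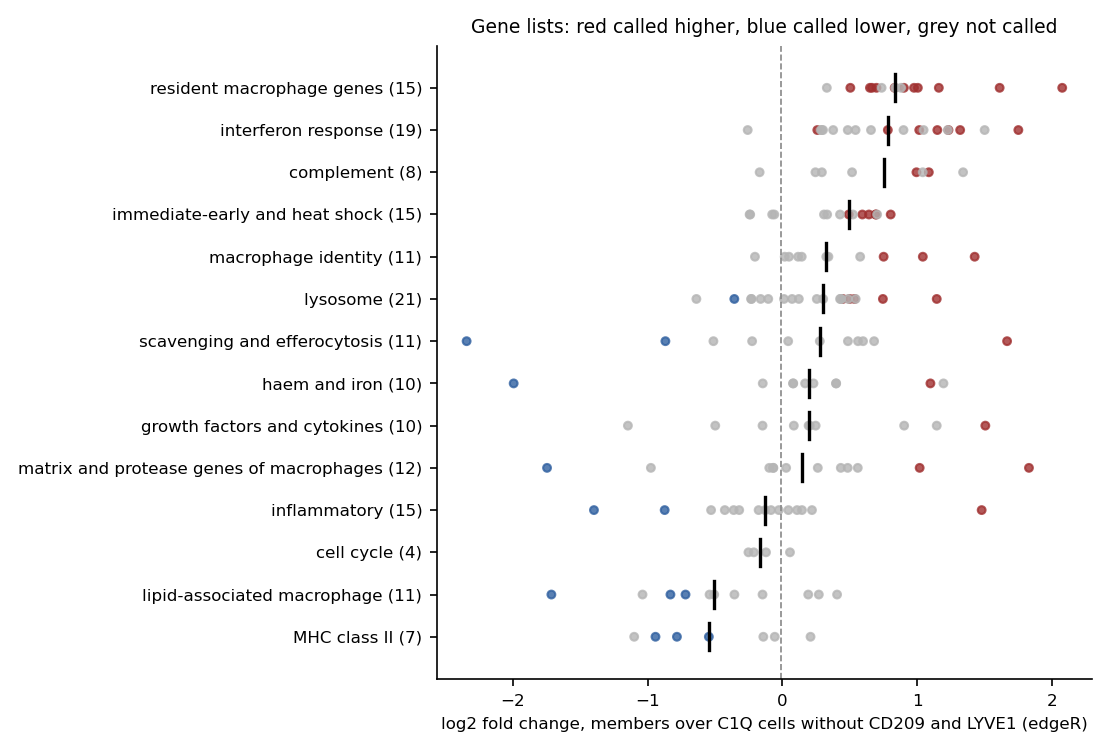
Log2 fold changes of CD209 or LYVE1 macrophages over C1Q macrophages without both genes for the tested genes of 14 gene lists, the number tested in brackets. Red points were called higher, blue lower and grey not called; black bars are list medians and the dashed line the median of all tested genes, with the resident list at the top and the MHC class II list at the bottom.

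Some antigen presentation genes were lower in the members. Of 7 tested MHC class II genes 0 were higher and 3 lower, with a median of -0.55. SLA-DQB1, a beta chain, was at 2216 and 1691 CPM in lateral and medial members against 3732 and 3681, a log2 fold change of -0.94 ± 0.10 (edgeR adjusted p = 9.3e-06). HLA-DRA, the name in the files for the pig DR alpha chain, was at 4194 and 2962 CPM against 6247 and 5852 (-0.78 ± 0.09), and CD74, the invariant chain, at 6000 and 6093 CPM against 8279 and 9344 (-0.55 ± 0.07). CIITA, the transcriptional master of the class II genes, was at 28.8 and 28.6 CPM against 60.0 and 62.9 and was not called (adjusted p = 0.0935). CCR7, a homing receptor of migrating dendritic cells, was at 36.0 and 48.6 CPM against 145 and 133 CPM (-1.69 ± 0.30). The call of CCR7 was lost without the cells that held markers of other types (adjusted p = 0.188), a filter that removes cells by this gene among others. At least 3 UMIs of the dendritic list were found in 2 lateral and 2 medial members and in 8 and 7 C1Q macrophages without CD209 and LYVE1. The part of dendritic cells in these differences was not tested.

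Genes of lipid-associated macrophages were lower or not called. Of 11 tested genes 0 were higher and 3 lower, with a median of -0.51. SPP1 was at 158 and 74.3 CPM against 475 and 276, a log2 fold change of -1.71 ± 0.19 (edgeR adjusted p = 1.3e-05). FABP5, a fatty acid carrier, was at 1809 and 1880 CPM against 3260 and 2812 (-0.72 ± 0.10), and PLIN2, the coat of lipid droplets, at 788 and 606 CPM against 1237 and 1213 (-0.83 ± 0.13). TIMP1, an inhibitor of matrix proteases, was at 122 and 306 CPM against 457 and 956 (-1.75 ± 0.16, adjusted p = 1.13e-06). In the same list of 12 matrix and protease genes TGFBI was higher by 1.02 and SDC3 by 1.83, which was 1.14 without the lateral library.

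Inflammatory genes went both ways. Of 15 tested genes 1 was higher and 2 lower, with a median of -0.13. CXCL8, the neutrophil chemokine, was at 277 and 300 CPM against 785 and 736, a log2 fold change of -1.40 ± 0.15 (edgeR adjusted p = 8.01e-06) called in every setting. CCL5 was lower by a log2 fold change of -0.87, a call lost without the cells that held markers of other types (adjusted p = 0.0899). CXCL10, an interferon-induced chemokine, was called higher at 1.48 ± 0.31, but this rested on the medial library, with 480 against 84.7 CPM there and 187 against 150 CPM in the lateral. It was 0.31 without the medial and 2.41 without the lateral library, and its call was lost without the cells that held markers of other types (adjusted p = 0.117). CCL8, a monocyte chemokine of no list, was at 406.5 and 1820 CPM against 1650 and 2960 (-1.28 ± 0.19), with -2.00 without the medial and -0.72 without the lateral library.

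The genes with the largest differences towards the cells without CD209 and LYVE1 included CLEC5A, a myeloid lectin receptor, at 10.8 and 5.71 CPM in members against 85.0 and 77.4 (log2 fold change -3.29 ± 0.48). SAMSN1, an adaptor protein, followed at -3.16, CPSF6, a factor of messenger RNA end processing, at -2.53, and IL2RG, the shared chain of several cytokine receptors, at -2.49. MREG was at -2.48, the AMP deaminase AMPD3 at -2.24, the mitochondrial DNA-binding protein SSBP1 at -2.19, the metallothionein MT1X at -2.05 and CYTIP at -2.04. CXCL9 was at -2.03, with 57.1% of the UMIs of the higher class in one of its libraries in 1 cell. CPSF6 was at 57.6 and 25.7 CPM against 257 and 211, and it and MT1X were called in every setting tested. MREG was at -1.59 without the medial library. MREG and CXCL9 lost their calls without the cells that held markers of other types (adjusted p = 0.0962 and 0.0975).

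Of 10 tested growth factor genes 1 was called, PDGFC, at 162 and 65.7 CPM in members against 37.5 and 38.7 (log2 fold change 1.50 ± 0.36, edgeR adjusted p = 0.0149), which was 0.67 without the lateral library. VEGFA, the main vascular growth factor, was at 46.8 and 28.6 CPM against 107 and 60.5 and was not called (log2 fold change -1.15 ± 0.34, adjusted p = 0.0535). VEGFA was called lower with no filter on low counts, in thinned cells and without the highest doublet scores (adjusted p = 0.0417, 0.0436 and 0.0459). In the cell cycle list 0 of 4 tested genes were called and in the osteoclast list 0 of 2. TOP2A, a gene of dividing cells, had a UMI in 0 of 164 lateral members, which allows up to 1.83%, and in 8 of 216 medial members (3.70%, 1.61 to 7.17), against 0.403% and 0.729% of fibroblast-type barcodes. It was among the 4 tested genes and was not called against the C1Q macrophages without CD209 and LYVE1. Of the same list CDK1 and CCNB2 had 0 UMIs in the members of both libraries. BIRC5 had a UMI in 1.83% and 3.24% of lateral and medial members against 0.735% and 1.05% of those macrophages. For CENPF the shares were 0.610% and 0.926% against 1.47% and 0.699%. Of the marker lists of other types, 0 of 8 fibroblast and 0 of 4 chondrocyte genes were called. GNLY, of T or NK cells, was called higher with 18 of 19 lateral UMIs in 1 cell, and JCHAIN, of plasma cells, with 458 of 460 lateral UMIs in 1 cell.

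The number of calls in this comparison depended on the model. DESeq2's Wald test called 20 of the 293 genes, 10 higher and 10 lower, and edgeR without the library block called 36, so most genes above rest on a spread pooled over genes with 1 residual degree of freedom. In 8 of the 293 called genes a single cell held over 50% of the UMIs of the higher class in a library. The direction was opposite in the libraries in 3 of the 293, JCHAIN, CCL19 and ENSSSCG00000038719, and all of these were among the 8.

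Within the members, those with LYVE1 and those with CD209 alone differed in 1 tested gene. The comparison took 59 lateral and 76 medial members with a LYVE1 UMI and 105 and 140 with CD209 only. Of 2304 tested genes edgeR called 1 (0.0434%), with 101 at an unadjusted p below 0.05, and DESeq2 called 0, with 5 at an unadjusted p below 0.05. The called gene was the cartilage proteoglycan ACAN, with 43 and 10 UMIs in cells with LYVE1 against 4 and 0, and 41 of the 47 lateral UMIs lay in 1 cell. F13A1 was at 785 and 514 CPM in cells with LYVE1 against 395 and 364 CPM, and was not called (log2 fold change 0.71 ± 0.20, edgeR adjusted p = 0.963). CCL4, a chemokine, was at 369 and 2300 CPM against 267 and 581 with no call (1.35 ± 0.29, edgeR adjusted p = 0.572). CCL4 was called with no filter on low counts (adjusted p = 4.889e-10) and without the highest doublet scores (adjusted p = 0.000115), and its value was 0.39 without the medial and 1.95 without the lateral library. No gene of the resident list was called among 15, and its median was 0.08 against -0.01 for all genes. Cells with LYVE1 were deeper, with a median of 1681 and 1593 UMIs against 1453 and 1312.5. A cell with CD209 alone may have LYVE1 RNA that was not captured, and differences of 2-fold were mostly out of the reach of this test, as the check on known answers given with the methods shows.

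Several chemokines were higher in the members of the medial than of the lateral red zone, and CD4 and MRC1 were lower. CCL8 was at 1820 CPM in medial and 406.5 CPM in lateral members, a ratio of 4.48 (exact 95% counting interval 3.66 to 5.52). CCL4, a chemokine for monocytes and T cells, was at 1260 against 306 CPM, a ratio of 4.12 (3.26 to 5.26), CXCL2 at 2217 against 885 CPM (2.50, 2.17 to 2.90) and CXCL10 at 480 against 187 CPM (2.57, 1.87 to 3.57). LGALS1, a galectin, was at 1797 against 698 CPM (2.57, 2.19 to 3.04). In the other direction CD4, which pig macrophages can carry, was at 219 CPM in lateral and 42.8 CPM in medial members, a ratio of 5.12 (2.88 to 9.70) with UMIs in 42 lateral cells. MRC1 was at 1133 against 551 CPM, a ratio of 2.06 (1.71 to 2.47), and PDGFC at 162 against 65.7 CPM. The C1Q macrophages without CD209 and LYVE1 differed the same way in CCL8 (2960 CPM medial, 1650 lateral) and CXCL2 (1883, 1375). CD4 (36.3, 72.5) and MRC1 also went this way in them, whereas CCL4 (912, 1070) and CXCL10 (84.7, 150) went the opposite way. The 10% of members richest in CCL4 held 78.8% of its lateral and 82.3% of its medial UMIs. The counting intervals do not cover this spread between cells.

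With 1 library on each side there is no replicate check, and these values compare 2 libraries and not the menisci. Of 1580 genes with at least 20 UMIs and 100 CPM in the higher library, 74 were past 2-fold (4.68%), 32 higher in medial and 42 in lateral members. Of the 10 inflammatory genes measured CXCL10, CXCL2 and CCL4 were past 2-fold towards medial and 0 towards lateral, with a median log2 ratio of 0.28 against -0.07 for all genes. Of 14 resident macrophage genes NRP1 and MRC1 were past it towards lateral and 0 towards medial. Other genes named by size were CXCL14 (3.83), SLC7A7 (3.71), IFNAR2, an interferon receptor chain (2.96), and SELENOM (2.83) towards medial. Towards lateral they were the protease MMP3 (5.19), BAG1 (4.88) and EIF2AK3 (3.57). In 9 of the 74 genes 1 cell held over 50% of the UMIs of the higher library, which includes the largest ratios. CCL19 had 113 of its 120 medial UMIs in 1 cell, COL2A1 all 85 lateral UMIs, JCHAIN 458 of 460 and HPS5 870 of 1684, and ACAN 41 of 47.

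**Figure D5:**
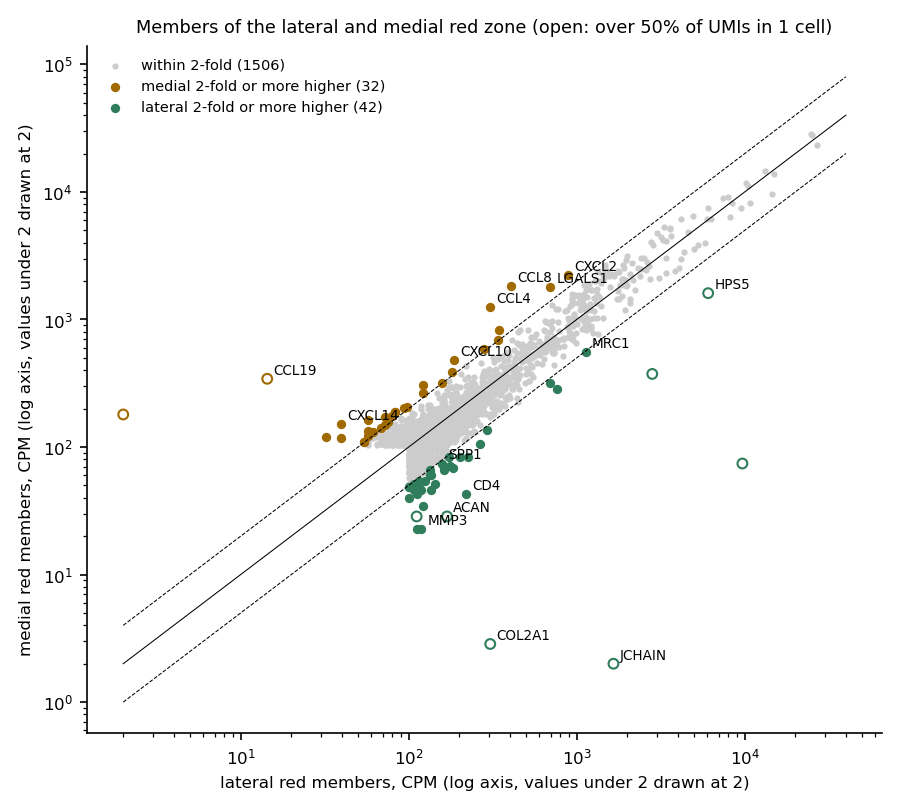
Levels of 1580 genes in the CD209 or LYVE1 macrophages of the lateral (horizontal) and medial (vertical) red library in CPM on log axes, values under 2 drawn at 2. The solid line marks equal levels and the dashed lines 2-fold; open circles are genes with over 50% of the UMIs of the higher library in 1 cell, among them CCL19, COL2A1 and JCHAIN.

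The genes that varied most among the members included collagens, chaperones, chemokines and C4BPA. Over 1850 genes ranked in both libraries by the variance of their Pearson residuals, which allow for the depth of each cell, COL1A1 and COL1A2 were among the first 4 in either. COL1A1 had a UMI in 54 of 164 lateral and 61 of 216 medial members, and the 10% of members richest in it held 96.2% and 97.2% of its UMIs, up to 386 and 258 in 1 cell. The share of members with a COL1A1 UMI was 32.9% and 28.2%, against 99.3% of fibroblast-type barcodes in both libraries. C4BPA ranked 3 and 11, but it was found in all 164 lateral and all 216 medial members, and the richest 10% held 17.6% and 19.8% of its UMIs. CXCL2 was found in 65 lateral and 120 medial members, with 59.3% and 59.8% of its UMIs in the richest 10%, and CCL2 in 113 and 143, with 41.0% and 57.6%. HSPA6 was found in 139 and 156 members, with 29.1% and 38.0%. So the complement inhibitor gene was spread over all members, and collagen RNA sat in a few.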

How the data were processed

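The authors deposited 1 table of UMI counts per library, with barcodes and features, per the labels; Cell Ranger 6.1.2 and the genome build Sscrofa11.1 are named per the submitters' processing notes, and filters on the deposited barcodes are not given in the sources used here. Of 21280 features 14811 had a symbol in the files and 688 were named from a reference table that pairs gene identifiers with symbols. The members, the 28 gene lists (362 genes, 307 in the files) and the tests were chosen with earlier results of these data known. IL1B was not found under that name.

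UMIs were summed per library and class. Genes kept by filterByExpr were tested with edgeR 4.0.16 (TMM scaling, quasi-likelihood, library as block), called at a Benjamini-Hochberg adjusted p below 0.05, with DESeq2 1.42.0 as an alternative, in R 4.3.3. Shares have exact 95% Clopper-Pearson intervals, which cover counting error only, as do limits taken as 3 counts. Python 3.11.15 with scanpy 1.11.5 was used for the rest, and no doublets were removed beyond the limits of the rule. The library is the pairing of the classes, since both came from 1 suspension. Tested on simulated data over 4159 genes, the comparison of members with other C1Q macrophages recovered 58 of 92 genes with a 2-fold and 86 of 93 with a 4-fold change, with 6 false calls. The comparison of cells with LYVE1 and with CD209 alone, over 2108 genes, recovered 11 of 90 and 76 of 93. The simulated counts were drawn with the spread that edgeR had fitted and with no difference between libraries beyond depth. They therefore do not measure the rate of false calls in the real data.

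Genes were named by these rules: a fixed list of macrophage genes; the 10 per direction with the largest called change and at least 50 CPM in the higher class; up to 4 per list with the lowest p; the 8 per direction with the largest ratio between menisci; and the 25 with the largest ratio to all other barcodes. Other list genes named were chosen after their values were seen. Alternatives covered scaling, filters, the block, thinning to 1000 UMIs, the C1Q limit and doublet scores. The results of some list genes are not reported here.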

Additional observations from a re-analysis of the deposited data

Results flagged for a closer look

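JCHAIN, a gene of plasma cells, was called higher in the members although its direction was opposite in the libraries. Its log2 ratio of members over C1Q macrophages without CD209 and LYVE1, with 20 CPM added, was 1.37 for the lateral library of the red zone and -0.16 for the medial one. The difference between the libraries was not tested. Of 460 lateral UMIs in members, 458 lay in 1 cell, and the medial members had 0.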

How the results depend on the processing

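The count of members was 380 and stayed between 298 and 385 under the other limits, thinning and filters, with 0 in both white libraries in each. Against the other C1Q macrophages 293 genes were called. DESeq2's size factors gave 185, 74 of them lower. Leaving out the block that pairs the classes by library gave 36, 17 higher and 19 lower. DESeq2's Wald test gave 20, 10 in each direction. Removing cells with markers of other types, chosen after seeing the data, gave 144, 92 higher and 52 lower, with 25 of the 293 no longer tested. Between cells with LYVE1 and with CD209 alone 1 gene was called. There were 2 with DESeq2's size factors (1 higher, 1 lower), 17 with no filter on low counts (9 and 8) and 11 without the highest doublet scores (6 and 5). There were 0 without the pairing block, in thinned cells, without cells holding other markers and with DESeq2. Between menisci 74 genes were past 2-fold, against 148 in thinned cells (57 medial, 91 lateral) and 131 without cells holding other markers (84 lateral). The cause of these shifts was not tested. Leaving out a red library leaves 1 pair and values with no test, and JCHAIN was then at -0.53 without the lateral and 1.39 without the medial library. The alternatives for white against red within the members were not run, since no white library had a member.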
